A study of Mus musculus with 24 samples.

Results

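Transcripts of 9 genes that encode brakes on MAP kinase and growth factor receptor signalling were followed in inguinal fat, a subcutaneous white adipose depot of the mouse. They were chosen by symbol, with earlier results of these data known. They are the dual-specificity phosphatase genes Dusp1, Dusp4, Dusp5 and Dusp6, the Sprouty genes Spry1, Spry2 and Spry4, the Sprouty-related gene Spred1, and Errfi1. All 9 listed genes were found among the 16233 genes of the table. Given how they were chosen, this says nothing about related genes that the low-expression filter of the table may have removed. RNA came from male C57BL6 mice, aged 10 to 11 weeks per the design text, in 4 groups of 6 libraries. ZT counts hours from lights on, and sampling was at ZT3, in the early rest phase, or at ZT15, in the early active phase. RUN mice had exercised for 1 hour, and SED mice had spent 1 hour as sham controls on an artificial treadmill. The labels give no hour between the bout and sampling, and no allele, drug or other treatment. Libraries are named by time, treatment and a number given in record order, which pairs nothing. The design text gives 6 animals per group, the same as the number of libraries, although the labels do not tie each library to a mouse. The p-values measure the spread between libraries.

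Growth factor receptors such as the EGF and FGF receptors activate Ras and then the kinases RAF, MEK and ERK, and stress signals activate the related kinases p38 and JNK. Cells limit these signals with feedback genes whose transcription is itself induced by the pathway. Dual-specificity phosphatases remove phosphate from the kinases, Sprouty and SPRED proteins act on Ras and RAF upstream of ERK, and the product of Errfi1, also called MIG6, binds the EGF receptor and inhibits its kinase. In adipocytes, adrenergic signals act through cyclic AMP, and glucocorticoids and insulin also act on these cells.

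The sequence upstream of the start site is shown for the members whose levels differed between the groups and whose promoter held a searched site, together with that of Dusp5 for contrast. RefSeq promoter entries (build GRCm38.p6) matched 7 of the 9 genes, all but Dusp4 and Spry4, with 8 start sites in all, since Errfi1 had a pair. Each window is the 250 bases before a start, written 5′ to 3′ on the strand of the gene. The windows lie at chr17:26508473-26508722 on the minus strand for Dusp1, at chr4:150854820-150855069 on the plus strand for the second start of Errfi1, and at chr19:53528895-53529144 on the plus strand for Dusp5. Capitals mark the cyclic AMP response element TGACGTCA and its core TGACG on either strand, and in Dusp5 also the CArG box, the site of serum response factor.
Dusp1: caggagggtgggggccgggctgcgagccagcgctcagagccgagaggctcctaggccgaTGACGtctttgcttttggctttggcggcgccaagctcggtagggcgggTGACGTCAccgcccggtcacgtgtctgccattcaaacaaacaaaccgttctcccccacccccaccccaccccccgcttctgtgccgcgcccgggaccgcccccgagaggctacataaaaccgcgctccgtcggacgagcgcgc
Errfi1: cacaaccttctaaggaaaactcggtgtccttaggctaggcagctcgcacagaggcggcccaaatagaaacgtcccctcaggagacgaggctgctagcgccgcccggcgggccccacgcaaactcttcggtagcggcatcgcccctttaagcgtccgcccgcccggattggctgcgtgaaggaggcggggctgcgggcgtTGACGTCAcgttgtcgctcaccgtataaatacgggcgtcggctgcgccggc
Dusp5: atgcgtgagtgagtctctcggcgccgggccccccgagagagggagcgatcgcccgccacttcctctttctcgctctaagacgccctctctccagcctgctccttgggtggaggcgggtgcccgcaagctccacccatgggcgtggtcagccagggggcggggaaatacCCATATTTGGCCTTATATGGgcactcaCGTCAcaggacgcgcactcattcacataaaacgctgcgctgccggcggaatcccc

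The full element TGACGTCA, which reads the same on both strands, occurred in 1.55% of the 32851 promoter windows in the table. Among the members it was found in Dusp1, with its first base 143 bases before the start, and in the second start of Errfi1, 51 bases before it. The core TGACG, searched on both strands and contained in each full element, occurred in 17.8% of all windows. In Dusp1 it was present at 191, 143 and 140 bases before the start, and in Errfi1 at 51 and 48, the last 2 positions of each gene being the overlapping copies within the full element. Dusp5 held the core alone, 55 bases before its start, and a pair of adjacent CArG boxes at 82 and 72, a motif present in 1.47% of windows. Errfi1 also had TATAAA (12.4% of windows) 28 bases before its second start, and Dusp1 had the E-box CACGTG (6.02% of windows) at 126. The AP-1 site TGANTCA (6.75% of windows) and the glucocorticoid receptor motif AGAACA (16.1% of windows) were in no member window. Dusp6, Spry1, Spry2, Spred1 and the other start of Errfi1 held no match to any of these motifs. A match describes letters in this window and does not show that a factor binds there.

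Values below are normalized reads as deposited, scaled to a common library size (CPM scale). Recovered depth was 18.5 to 34.7 M (mega) reads per library in the listed genes. Changes are log2 differences of value + 1 with their SE from limma, fitted to all 24 libraries. Adjusted p-values are Benjamini-Hochberg values over 16233 genes, with a threshold of 0.05. The adipocyte genes Adipoq and Plin1 were at 1101 or more and 619.99 or more in every library. Other tissues varied between libraries. The sum of 14 lymphocyte markers ranged from 105.2 to 1449.5 in ZT15 SED and from 69.4 to 183 in ZT15 RUN, and it reached 2204 in ZT3_RUN_4. The B cell gene Cd79a stood at 14.1 in ZT15_SED_3, 54.6 in ZT15_SED_5 and 99.2 in ZT3_RUN_4, and at 1.33 or less elsewhere. The sum of 12 skeletal muscle markers ranged from 148 to 69281 in ZT15 SED and from 372 to 86661 in ZT15 RUN. Results are therefore also given without the 3 libraries high in Cd79a, and without ZT3_SED_1 and ZT3_RUN_1. These last 2 lay with the opposite treatment in Tsc22d3, a glucocorticoid-induced gene: ZT3_SED_1 had 390 where the rest of its group had 129 to 189, and ZT3_RUN_1 had 127 where the rest of its group had 299.8 to 395. Both sets were chosen after their values had been seen, and ZT3_SED_1 and ZT3_RUN_1 also looked like the opposite treatment in Errfi1.

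Errfi1 was the most abundant member and Dusp5 the scarcest. Per kilobase of merged exon (GENCODE M21 lengths), the mean level over all libraries was 55.1 for Errfi1, 23.3 for Dusp1, 12.3 for Spred1 and 11.9 for Dusp6. It was 6.72 for Spry1, 6.29 for Spry2, 5.25 for Spry4, 4.40 for Dusp4 and 1.30 for Dusp5. By mean normalized level, unadjusted for length, the members ran from the 25.9th percentile of all genes (Dusp5) to the 95.3rd (Errfi1). Spread between libraries of the same group also differed. Its SD on the log2 scale was 0.18 for Spred1, at the 31.8th percentile of all genes, and 0.69 for Errfi1 and 0.77 for Dusp5, at the 94.2nd and 95.2nd percentiles.

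**Figure D1:**
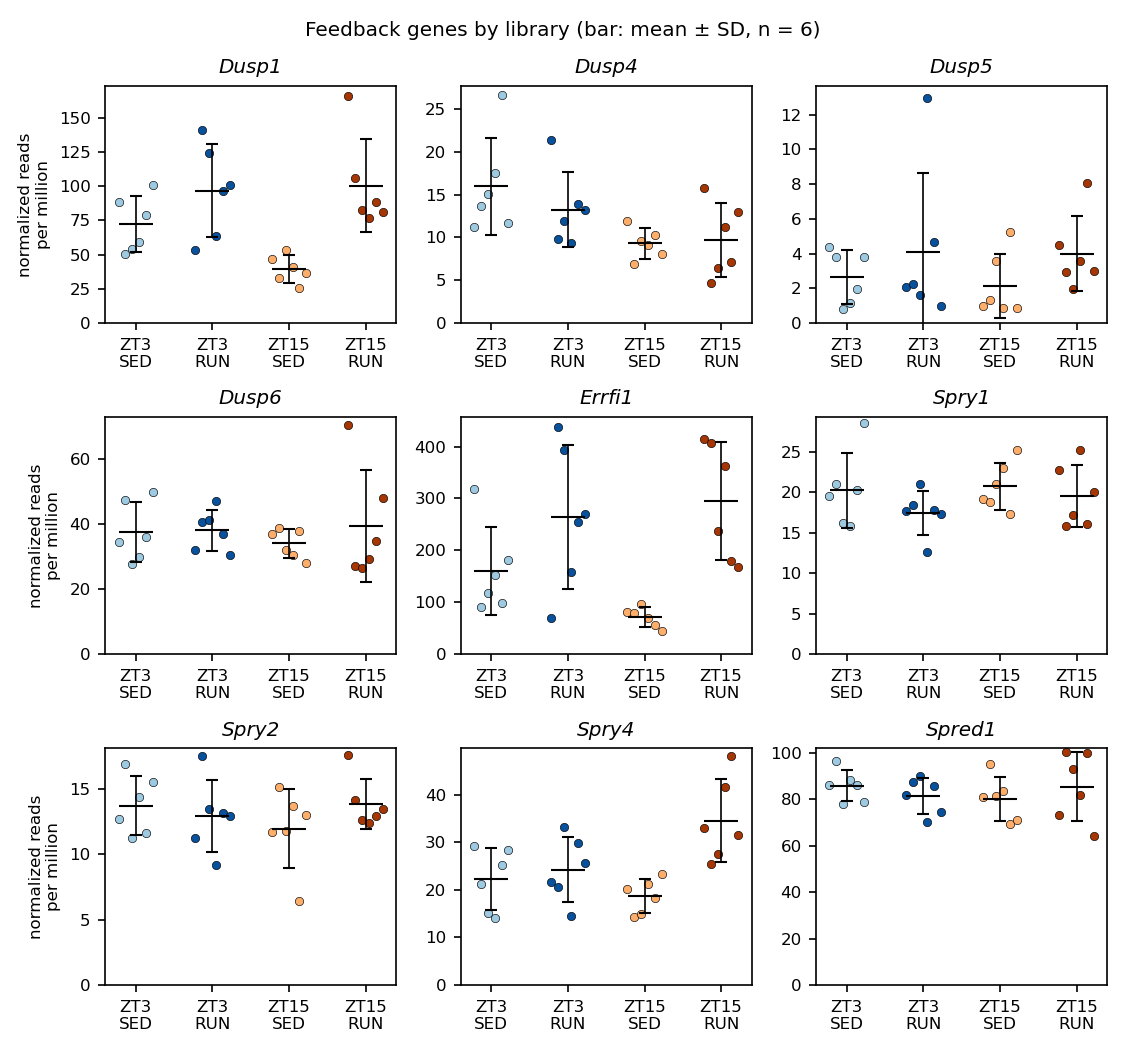
Normalized reads (CPM scale) of the 9 feedback genes in 24 libraries, by group on the horizontal axis. Points are libraries, and bars are the mean ± SD of 6 (the lower bar of Dusp5 in ZT3 RUN runs below the axis). Dusp1, Errfi1 and Spry4 are the panels in which every ZT15 RUN point is above every ZT15 SED point.

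The first question was what exercise did at ZT15. Dusp1 and Errfi1 rose, and Spry4 was higher in every exercised library but missed the threshold. The other 6 members differed by less than the test could call. Thus 2 of 9 members passed, both higher, against 0.641% of all genes. Since the members were chosen with earlier results of these data known, this share and those below describe them and are no test. Exercised libraries all lay above all sedentary ones in 3 of 9 members (Dusp1, Errfi1 and Spry4), against 1.00% of all genes. The change was above 0 in 7 of 9, with a median of 0.23, against 50.7% and 0.003 over all genes.

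Errfi1 (ENSMUSG00000028967), the inhibitor of the EGF receptor, ran from 43.6 to 96.7 with a median of 74.2 in ZT15 SED, and from 167 to 415 with a median of 299.2 in ZT15 RUN. The lowest exercised library was above the highest sedentary one. Errfi1 rose by 1.98 ± 0.38 (adjusted p = 0.0170, limma), from 71.1 ± 19.0 to 294.5 ± 113.7 (SD, n = 6 each). The call was lost without ZT15_RUN_4 (adjusted p = 0.0553), without ZT15_SED_6 (0.0522) and without the 3 libraries high in Cd79a (0.0605, with a change of 2.03).

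Dusp1 (ENSMUSG00000024190), a nuclear phosphatase of p38, JNK and ERK, ran from 25.9 to 53.6 with a median of 38.6 in ZT15 SED, and from 76.5 to 166 with a median of 85.9 in ZT15 RUN. The ranges did not overlap. It rose by 1.31 ± 0.24 (adjusted p = 0.0169, limma), from 39.5 ± 9.93 to 100.3 ± 33.9. Dusp1 passed in all 24 fits that left out a single library, and without the 3 libraries high in Cd79a its adjusted p was 0.049.

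Spry4 (ENSMUSG00000024427), a Sprouty protein that restrains ERK activation by receptor tyrosine kinases, ran from 14.3 to 23.4 with a median of 19.2 in ZT15 SED, and from 25.5 to 48.2 with a median of 32.3 in ZT15 RUN. These ranges did not overlap either. The difference was 0.84 ± 0.20 (adjusted p = 0.0554, limma), between means of 18.7 ± 3.59 and 34.6 ± 8.69. It passed with DESeq2 on recovered reads (0.0042), with median centring (0.0458) and with only the groups compared (0.0469). It missed with edgeR on recovered reads (0.0508), with quantile normalization (0.0835), with neighbouring title numbers as a block (0.110) and without the 3 libraries high in Cd79a (0.119, with a difference of 0.76 ± 0.21). Without a single library its adjusted p ranged from 0.0250 to 0.170, and it passed in 4 of 24 such fits, those without ZT3_SED_1, ZT3_RUN_4, ZT15_RUN_2 or ZT15_RUN_3.

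The other phosphatase genes had overlapping ranges. Dusp6, a cytoplasmic phosphatase specific to ERK, ran from 28.0 to 38.8 in ZT15 SED and from 26.6 to 70.5 in ZT15 RUN, a difference of 0.12 ± 0.20 (adjusted p = 0.851). Dusp4, a nuclear phosphatase, ran from 6.86 to 12.0 and from 4.62 to 15.8, a difference of -0.03 ± 0.24 (0.977) whose sign turned with edgeR, DESeq2, quantile normalization and median centring. Dusp5, a nuclear phosphatase specific to ERK, ran from 0.889 to 5.26 and from 1.95 to 8.05, a difference of 0.75 ± 0.42 (0.474), which was 1.22 ± 0.33 without the 3 libraries high in Cd79a (0.107). Its reads were few, from 20 to 150 per library in ZT15 SED.

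The Sprouty and SPRED genes other than Spry4 differed little at ZT15. Spry2 ran from 6.45 to 15.2 in SED and from 12.4 to 17.6 in RUN, a difference of 0.23 ± 0.16 (adjusted p = 0.579). That difference was 0.04 ± 0.12 without the 3 libraries high in Cd79a (0.971) and 0.08 without ZT15_SED_5 alone. Spry1 ran from 17.4 to 25.2 and from 15.8 to 25.3, a difference of -0.09 ± 0.14 (0.840). Spred1, which blocks the activation of RAF by Ras, ran from 69.5 to 95.2 and from 64.0 to 100.3, a difference of 0.08 ± 0.10 (0.805). All 3 pairs of ranges overlapped.

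**Figure D2:**
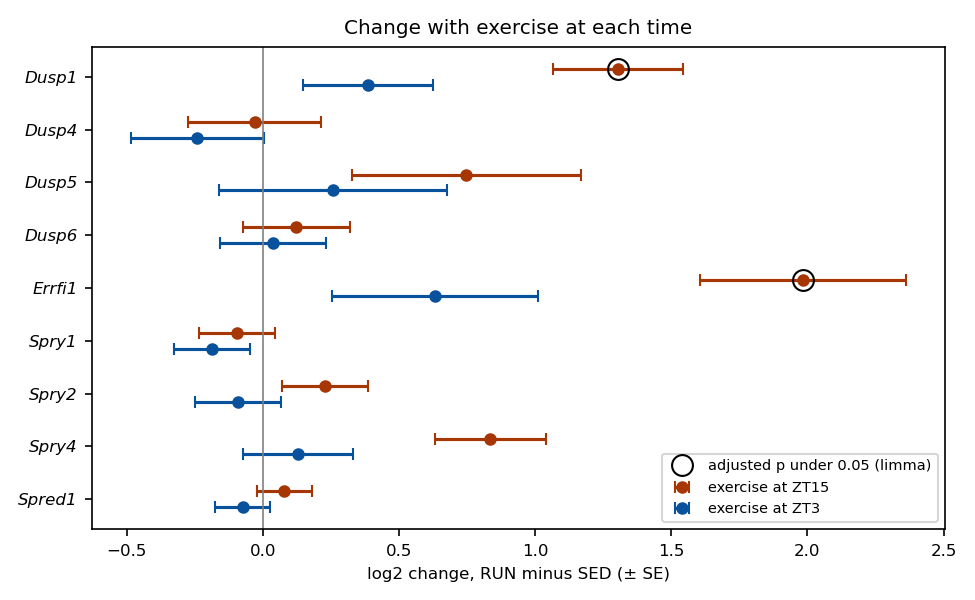
Log2 change with exercise (RUN minus SED) of each feedback gene at ZT15 and at ZT3, with bars of 1 SE. Rings mark an adjusted p under 0.05, which Dusp1 and Errfi1 reached at ZT15 and no member reached at ZT3.

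At ZT3, in the rest phase, 0 of 9 members passed with limma, edgeR or DESeq2, against 0% of all genes with each. With limma 0 members had an unadjusted p under 0.05, against 368 of 16233 genes. Errfi1 ran from 90.1 to 318 with a median of 135 in ZT3 SED, and from 68.6 to 437 with a median of 262 in ZT3 RUN. The highest sedentary value was ZT3_SED_1 and the lowest exercised value was ZT3_RUN_1. The difference was 0.63 ± 0.38 (adjusted p = 0.989), and without these 2 libraries it was 1.20 ± 0.30 (0.235). Leaving out these 2 extremes can only raise the Errfi1 difference, so the rise itself shows nothing further. Dusp1 ran from 50.7 to 100.7 and from 53.2 to 141, a difference of 0.39 ± 0.24 (0.989), which was 0.61 ± 0.24 without them (0.808). The direction of this shift was fixed as well. For Dusp1 ZT3_RUN_1 was the lowest exercised library (53.2), and ZT3_SED_1 (88.7) lay above its group mean (72.1). Spry4 ran from 14.1 to 29.2 and from 14.6 to 33.2, a difference of 0.13 ± 0.20.

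The remaining 6 members at ZT3 lay between -0.24 and 0.26. Dusp4 ran from 11.2 to 26.6 in SED and from 9.40 to 21.4 in RUN (-0.24 ± 0.24), and Dusp5 from 0.787 to 4.41 and from 0.992 to 13.0 (0.26 ± 0.42). The high Dusp5 value was in ZT3_RUN_4, the library highest in lymphocyte markers, and without the 3 libraries high in Cd79a the difference was -0.10. With edgeR or DESeq2 it was 0.63, and without ZT3_SED_1 and ZT3_RUN_1 it was 0.47. Without those last 2 libraries Dusp4 was at -0.47 ± 0.25. For Dusp4 ZT3_SED_1 was the lowest sedentary library (11.2) and ZT3_RUN_1 the highest exercised one (21.4). For Dusp5 ZT3_SED_1 was the highest sedentary library (4.41), and ZT3_RUN_1 (2.07) lay below its group mean (4.10). Leaving these libraries out thus fixed the direction of the Dusp4 and Dusp5 shifts. Dusp6 (0.04 ± 0.20), Spred1 (-0.07 ± 0.10), Spry2 (-0.09 ± 0.16) and Spry1 (-0.19 ± 0.14) had overlapping ranges. Whether the lymphocyte content had a part in these values was not tested.

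The difference between the effects at ZT15 and ZT3 was tested directly. With limma 0 of 9 members passed, against 0% of all genes. An unadjusted p under 0.05 was found for 1273 of 16233 genes and for 3 members. These were Errfi1 at 1.35 ± 0.54, Dusp1 at 0.92 ± 0.34 and Spry4 at 0.71 ± 0.29, each with adjusted p = 0.583 (limma). All 9 differences were above 0, against 50.7% of all genes, with a median of 0.32 against 0.004 over all genes. Without ZT3_SED_1 and ZT3_RUN_1 the difference fell to 0.79 ± 0.41 for Errfi1, 0.70 ± 0.33 for Dusp1 and 0.60 ± 0.30 for Spry4. Each had adjusted p = 0.656 (limma), and of these 3 only Dusp1 kept an unadjusted p under 0.05. The direction of these shifts was likewise fixed by which values were left out. Without the 3 libraries high in Cd79a the difference for Dusp5 was 1.32 ± 0.45 (adjusted p = 1.00), and that for Spry2 was 0.05. That for Spry4 was 0.50 ± 0.29, with an unadjusted p over 0.05. A larger effect at ZT15 was thus not established for any single member. edgeR called 0 of 9, against 0% of all genes, and DESeq2 0 of 9, against 1.47% of those with an adjusted p. The 14 lymphocyte markers were all below 0 in this comparison (median -2.28), and 13 of them passed with DESeq2 and 0 with limma or edgeR. Their part in the values of the members was not tested.

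The group means of the 3 genes that differed most at ZT15 were put in order. For Dusp1 the order ran from ZT15 RUN (100.3) through ZT3 RUN (96.7) and ZT3 SED (72.1) to ZT15 SED (39.5). For Errfi1 the same order held, with 294.5, 264, 160 and 71.1. The order of the exercised groups rests on ZT3_RUN_1: without it the ZT3 RUN mean was 105 for Dusp1 and 303 for Errfi1, above ZT15 RUN in both. By medians ZT3 RUN was also above ZT15 RUN for Dusp1, at 98.5 against 85.9. In each gene the exercised means at the 2 times differed by less than their SD, and the sedentary ones by more than the SD of ZT15 SED. In sedentary mice the ZT15 minus ZT3 difference was -0.84 ± 0.24 for Dusp1 (adjusted p = 0.0872, limma) and -1.06 ± 0.38 for Errfi1 (0.207). For Spry4 the order was ZT15 RUN (34.6), ZT3 RUN (24.3), ZT3 SED (22.2) and ZT15 SED (18.7), with neighbours among the last 3 closer together than their SD.

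Across time in sedentary mice 0 of 9 members passed with limma, against 1.18% of all genes. With limma 3 members had an unadjusted p under 0.05, against 1967 of 16233 genes. DESeq2 called 2 of 9, Dusp1 (adjusted p = 0.0204) and Errfi1 (0.0404), against 3.45% of the genes to which it gave an adjusted p, and edgeR 0, against 1.18% of all genes. Dusp4 had means of 16.0 ± 5.72 at ZT3 and 9.30 ± 1.77 at ZT15, a difference of -0.68 ± 0.24 (0.212). The change was above 0 in 1 of 9 members and below 0 in 8, where 54.0% of all genes were above 0. The median was -0.21 against 0.016 over all genes. This comparison shares the ZT15 SED libraries with the exercise comparison at ZT15 and with the interaction, so low values there enter each of them. Markers of other cells also moved with time in sedentary mice. All 10 preadipocyte and fibroblast markers were lower at ZT15 (median -0.62, 2 passed with limma), as were all 12 skeletal muscle markers (median -1.61, 0 passed), and all 14 lymphocyte markers were higher (median 1.43, 0 passed with limma or edgeR and 10 with DESeq2). Their part in the values of the members was not tested. In exercised mice 0 of 9 passed, against 4.19% of all genes. There 1 member had an unadjusted p under 0.05 with limma, against 3375 of 16233 genes. edgeR called 0, against 4.58% of all genes, and DESeq2 0, against 10.4% of those with an adjusted p. Spry4 had the largest difference there (0.50 ± 0.20, adjusted p = 0.162), followed in size by Dusp4 (-0.47 ± 0.24, 0.279).

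Dusp1 and Errfi1 also varied together between libraries of the same group. With group means removed, Pearson's r over 24 libraries was 0.76 (permutation p = 3e-05, adjusted p = 0.00108 over 36 pairs of members). Spearman's rho was 0.74 (permutation p = 9e-05, adjusted p = 0.00324). These libraries include ZT3_SED_1 and ZT3_RUN_1, which looked like the opposite treatment in Errfi1 and were kept under their labels. Leaving out the 2 libraries farthest from the median of Dusp1 gave r = 0.70. Within groups r was 0.64 in ZT3 SED, 0.97 in ZT3 RUN, 0.62 in ZT15 SED and 0.57 in ZT15 RUN. The second pair that passed was Spry1 and Spry4, at r = 0.64 and rho = 0.58 (adjusted permutation p = 0.0153 for r and 0.0742 for rho), and r = 0.53 without the 2 farthest libraries. That call was lost without ZT3_SED_4 or ZT3_RUN_4, each of which left 1 pair past the threshold. Of all 36 pairs 24 were positive, from -0.45 to 0.76, with a median of 0.12.

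**Figure D3:**
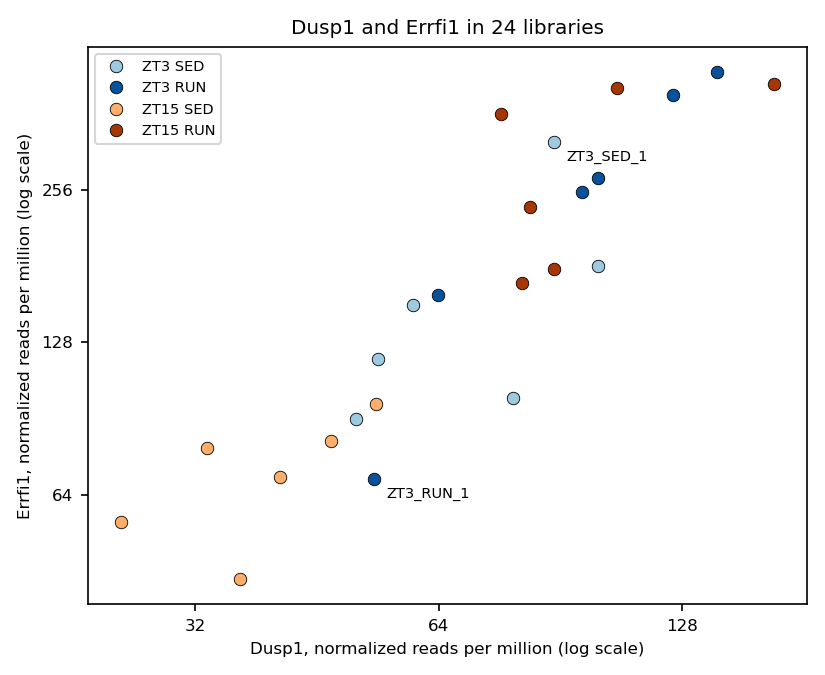
Errfi1 against Dusp1 in normalized reads (CPM scale), both axes on a log scale, with a point for each of 24 libraries coloured by group. The ZT15 SED points lie at the lower left. Both ZT3_RUN_1 (53.2 and 68.6) and ZT3_SED_2 (50.7 and 90.1) lie within the ZT15 SED range of each gene.

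**Figure D4:**
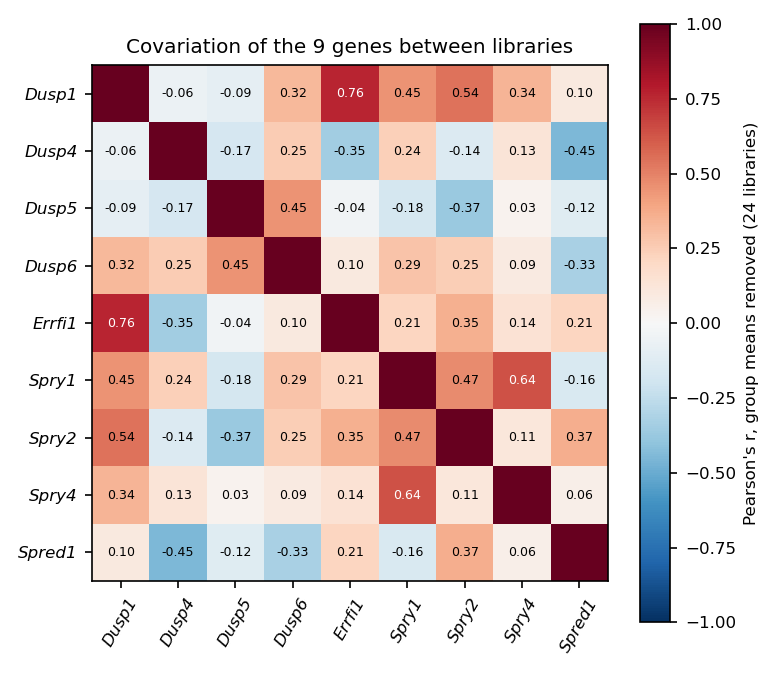
Pearson's r between the 9 feedback genes over 24 libraries after removal of group means, on a scale from -1 to 1. Dusp1 with Errfi1 (0.76) and Spry1 with Spry4 (0.64) are the pairs that passed the adjustment over 36.

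The genes most like each member were found by Pearson's r over the 24 libraries, group means kept, among named genes above the median level. This is a description, since such genes share libraries and depth. For Dusp1 these were Errfi1 (0.90), Adamts1, a secreted metalloproteinase (0.82), and Ccn1, a matricellular immediate early gene (0.82). For Errfi1 they were Dusp1, Cebpd, a transcription factor (0.85), and Jdp2, a bZIP factor (0.83). Spry4 was closest to Vcl, the focal adhesion gene vinculin (0.87), Esam, an endothelial adhesion gene (0.87), and Ets2, a transcription factor (0.84). Dusp6 was closest to the immediate early genes Junb (0.72) and Btg2 (0.67) and to Tmem128 (0.66).

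The remaining members each had other nearest genes. Spred1 was closest to Arhgap42 (0.85), Gas7 (0.82) and Pdgfra, a receptor of adipocyte progenitors (0.81). Spry1 was closest to the pericyte gene Rgs5 (0.71), to the thyroid hormone receptor gene Thrb (0.71) and to Cog7 (0.69). Spry2 was closest to Anxa4 (0.81), Morf4l2 (0.80) and Blvrb (0.79). Dusp4 was closest to Pfkfb3, a regulator of glycolysis (0.72), Adrb3, the adipocyte beta-adrenergic receptor (0.71), and Tspan18 (0.71). Dusp5 was closest to Plekhg2 (0.87), Ncapg2 (0.85) and Ctdp1 (0.85).

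The rest of the pathway was read from 11 lists with 162 measured genes. At ZT15 7 of these passed with limma, all higher, against 0.641% of all genes. The lists were chosen with earlier results of these data known, so these counts describe them and are no test. In this comparison edgeR called 0.745% of all genes and DESeq2 3.75% of those with an adjusted p. With limma 2055 of 16233 genes had an unadjusted p under 0.05. At ZT15 receptors and ligands were not called with limma or edgeR. Of 6 EGF family ligands, 4 EGF family receptors, 7 FGF ligands and 15 other receptor tyrosine kinases, 0 passed with limma, with 1, 1, 0 and 4 unadjusted p under 0.05. With edgeR 0 passed in each, and with DESeq2 0, 0, 0 and 3. Egfr, the receptor that Errfi1 inhibits, had a mean of 223 ± 86.1 in ZT15 SED and 335 ± 126 in ZT15 RUN (0.63 ± 0.32, adjusted p = 0.415). Fgf2, the most abundant FGF ligand, differed by 0.16 ± 0.23, and by -0.03 without the 3 libraries high in Cd79a.

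Few genes of the kinase cascades passed. Of 20 genes of the Ras to ERK core 0 passed with limma at ZT15 (median 0.05, 4 unadjusted p under 0.05, edgeR 0 and DESeq2 1), and of 16 of the p38 and JNK core 0 passed (median 0.02, 3 unadjusted, 0 and 1). Of 26 other brakes on Ras and receptors 0 passed (median 0.04, 7 unadjusted, 0 and 1). Of 13 other MAP kinase phosphatases 1 passed, Dusp16, a phosphatase of JNK and p38, which rose by 0.63 ± 0.15 (adjusted p = 0.0418), from 55.0 ± 7.97 to 85.8 ± 14.8. Its call was lost without the 3 libraries high in Cd79a (0.149), with quantile normalization (0.0835), with neighbouring title numbers as a block (0.0656), and in 17 of 24 fits that left out a single library.

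Transcripts induced by these pathways were also counted. Of 27 ERK-responsive transcripts 1 passed with limma at ZT15, 1 with edgeR and 5 with DESeq2. The change was above 0 in 22 of the 27, with a median of 0.41 and 9 unadjusted p under 0.05. The call with limma was Fosl2, an AP-1 subunit, which rose by 1.45 ± 0.27 (adjusted p = 0.0169) from 77.5 ± 17.2 to 214 ± 47.1. Fosl2 missed without ZT15_RUN_5 (0.0511) or the 3 libraries high in Cd79a (0.0605). Etv5 differed by -0.13 ± 0.14, Etv4 by 0.23 ± 0.14 and Egr1 by 0.75 ± 0.52, and these 3 were chosen after their values were seen. Of 16 glucocorticoid-induced transcripts 0 passed with limma, 1 with edgeR and 5 with DESeq2, with 10 unadjusted p under 0.05, 16 above 0 and a median of 0.67.

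Of 12 cyclic AMP-responsive transcripts 5 passed with limma at ZT15, all higher, 6 with edgeR and 8 with DESeq2. The shares of all genes were 0.641%, 0.745% and 3.75%. The change was above 0 in 11, against 50.7% of all genes, with a median of 1.29 and 9 unadjusted p under 0.05. This list too was chosen with earlier results known. Irs2, the insulin receptor substrate, rose by 1.53 ± 0.28 (adjusted p = 0.0169), Crem, a cyclic AMP-responsive regulator, by 1.21 ± 0.22 (0.0169), Sik1, a salt-inducible kinase, by 1.63 ± 0.30 (0.0170), and Nr4a3, an orphan nuclear receptor, by 2.76 ± 0.56 (0.0237). Without ZT15_RUN_4 or without ZT15_RUN_5 each of these 4 missed, with adjusted p from 0.0511 to 0.0741. With neighbouring title numbers as a block all 4 missed, at 0.0518 for Crem, 0.0566 for Sik1, 0.0698 for Irs2 and 0.0915 for Nr4a3. Nr4a3 also missed without ZT15_RUN_1, ZT15_RUN_6 or ZT15_SED_6. Without the 3 libraries high in Cd79a Irs2 (0.0518), Crem (0.0605) and Nr4a3 (0.0605) missed. At ZT15 all 14 lymphocyte markers were lower in RUN (median -1.52) and all 12 skeletal muscle markers higher (median 0.87). None of these passed with limma (smallest adjusted p = 0.407 and 0.756) or edgeR. With DESeq2 12 of the 14 lymphocyte markers and 0 of the 12 muscle markers passed, where 3 of 9 members did. Their part in the values of the feedback genes was not tested beyond leaving out those 3 libraries.

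**Figure D5:**
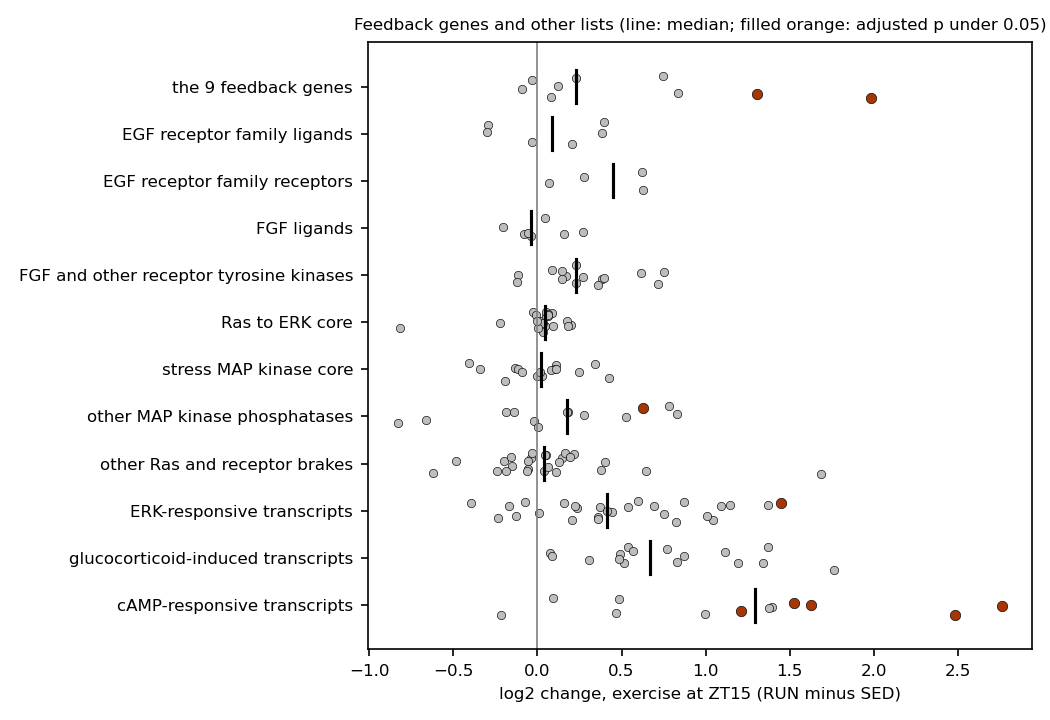
Log2 change with exercise at ZT15 for the 9 feedback genes and 11 other lists, with a point for each gene and a line at each list's median. Filled points passed an adjusted p of 0.05, which was 2 of 9 feedback genes and 5 of 12 cyclic AMP-responsive transcripts.

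Between ZT15 and ZT3 in exercised mice, 11 genes of the same lists were higher and 2 lower of 162, against 4.19% of all genes, where 7 of 162 had passed with exercise at ZT15, against 0.641%. The EGF family ligand gene Nrg4, the receptor genes Fgfr3 and Met, and Gab1 of the Ras to ERK core passed with limma. They were higher at ZT15 by 0.82, 0.73, 0.58 and 0.52. Each missed with only the groups compared, with adjusted p from 0.0821 to 0.189 (limma). Each also missed without ZT15_RUN_4 or without ZT15_RUN_5, with adjusted p from 0.0507 to 0.105. With quantile normalization Nrg4 (0.0636), Met (0.0619) and Gab1 (0.0510) missed. Fgfr3 missed without the libraries high in Cd79a (0.0744), without ZT3_SED_1 and ZT3_RUN_1 (0.0835), and without several other single libraries. Dusp16 was higher at ZT15 by 0.78 ± 0.15 (adjusted p = 0.0036). Map2k3, an activator of p38, was higher by 0.70 ± 0.15 (0.0123, and 0.0710 with only the groups compared), and Rasal2, a Ras GTPase activator, by 0.50 ± 0.10 (0.0070). Rasa3, another Ras GTPase activator, was lower in exercised mice by -0.58 ± 0.10 (0.0022) and in sedentary mice by -0.46 ± 0.10 (0.0189). The sedentary call of Rasa3 was lost without ZT15_SED_1 (0.0594) or ZT15_SED_4 (0.0525), with only the groups compared (0.0595), and without ZT3_SED_1 and ZT3_RUN_1 (0.0503). Fos, an AP-1 subunit, was lower at ZT15 in sedentary mice by -2.45 ± 0.51 (0.0132), from 72.4 ± 55.2 to 10.8 ± 5.78.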

How the data were processed

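Ribosomal RNA was removed and stranded libraries of total RNA were sequenced, per the labels' protocols. Tools listed, per the submitters' processing notes, are limma 3.48.3, featureCounts, Subread 1.6.2 and STAR. Build, annotation and strand setting: not given in the sources used here. The deposited table holds normalized signal, made by the authors before deposit. Whole reads were recovered for 100% of the values (tolerance 0.01 read), and edgeR 4.0.16 and DESeq2 1.42.0 were run on them as alternatives. Comparisons used limma 3.58.1 (R 4.3.3) with lmFit and trended eBayes on log2(value + 1), which understates changes of low genes. Other alternatives were quantile normalization, median centring, a pseudocount of 0.1, a filter on the lowest 25% of genes, only the groups compared, blocks of title numbers, and leaving out libraries. No pair of libraries matched within sampling noise (chi-square over degrees of freedom at least 21.9 in 276 pairs). Members and lists were chosen with earlier results of these data known. All members were named, with up to 4 genes of each list past the threshold in any comparison (smallest p first) or its most abundant gene, and of these the text gives those it describes. Scripts were tested on simulated data.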

Additional observations from a re-analysis of the deposited data

Results flagged for a closer look

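Among 36 sets of 6 libraries (9 genes in 4 groups), 4 held a library farther from its nearest neighbour, relative to the range of the group, than Dixon's 95% critical value. Chance marks about 1 set in 20 if values are normally distributed, which was not checked. The ratios were taken on normalized values without logs, and all 4 marked libraries were high in their group. Dusp1 was at 166.3 in ZT15_RUN_1, where the next highest library of the group was at 106. Spry2 was at 17.6 in the same library, with the next at 14.1. Dusp4 was at 21.4 in ZT3_RUN_1, with the next at 13.9. Dusp5 was at 13.0 in ZT3_RUN_4, the library highest in lymphocyte markers, with the next at 4.68. Without ZT15_RUN_1 the exercise change of Dusp1 at ZT15 was 1.15 (adjusted p = 0.0405, limma).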

How the results depend on the processing

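Of 45 member results (9 genes in 5 comparisons) under 1557 alternatives in all, 1502 kept their direction and side of the threshold, 3 missed it, 10 newly passed it and 42 turned sign. No result that turned sign had passed, and none was larger than 0.14 in size after turning. The cause of these changes was not tested. With DESeq2 the number of genes past the threshold was 561 at ZT15 (329 higher, 232 lower, against 78 and 26 with limma), 239 for the interaction, 548 for time in sedentary mice, with 2 members, and 1590 for time in exercised mice. At ZT15 it was 67 higher and 5 lower with quantile normalization, and 139 and 16 with median centring. Without the 3 libraries high in Cd79a it was 22 at ZT15, with 1 member. Without ZT3_SED_1 and ZT3_RUN_1 it was 199 at ZT15, 19 at ZT3 and 434 for time in exercised mice. That last count was 426 with quantile normalization and 109 with only the groups compared. Neighbouring title numbers as a replicate block gave 19 genes at ZT15, still with Dusp1 and Errfi1 (each adjusted p = 0.0495, limma) but without Irs2, Crem, Sik1, Nr4a3 or Dusp16, and runs of 8 title numbers gave 287 for time in sedentary mice. The labels do not say that these numbers pair libraries: over 12 neighbouring pairs the deviations from group means correlated at -0.44 to 0.78 (median 0.18, over 0.1 in 7 of 12), and 3 libraries correlated best with their neighbour. The pairs of members that covaried numbered 1 with Spearman's rho, 1 with group means kept, and 4 with quantile normalization, with median centring or without the libraries high in Cd79a.

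Leaving out a single library gave 16 to 293 genes and 1 to 3 members at ZT15, 130 to 388 genes for time in sedentary mice, 330 to 1004 for time in exercised mice, and 1 to 3 covarying pairs. The fewest genes at ZT15, 16, came without ZT15_RUN_4, and the most, 293, without ZT3_RUN_4. The lowest and highest log2 values over single libraries left out, for results that turned sign, were -0.1802 and 0.1352 for Dusp4 at ZT15, -0.0602 and 0.2144 for Dusp6 at ZT15, -0.0429 and 0.1244 for Dusp6 at ZT3, -0.103 and 0.4593 for Dusp5 at ZT3, and -0.0313 and 0.3181 for Fgf2 at ZT15. For the interaction they were -0.0972 and 0.1774 for Dusp6 and -0.0073 and 0.1555 for Spry1. For time in sedentary mice they were -0.0116 and 0.1512 for Spry1. For time in exercised mice they were -0.0784 and 0.2023 for Dusp1, -0.2113 and 0.0633 for Dusp6, and -0.0509 and 0.4801 for Errfi1.

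Other signs that turned were as follows. With edgeR and DESeq2, Dusp4 at ZT15 was at 0.0606 and 0.0662, and time in exercised mice was at -0.0454 and -0.0398 for Dusp5 and at 0.05 and 0.0513 for Dusp6. With quantile normalization Dusp4 at ZT15 was at 0.0331 and Spred1 for time in exercised mice at -0.0133. With median centring Dusp4 at ZT15 was at 0.0253 and Dusp6 for time in exercised mice at 0.0258. Without the libraries high in Cd79a, Dusp4 at ZT15 was at 0.0213, Dusp5 and Dusp6 at ZT3 at -0.103 and -0.0268, Fgf2 at ZT15 at -0.033, Spry1 for the interaction at -0.0439, and time in exercised mice at -0.0246 for Dusp1 and 0.0358 for Dusp6. Without ZT3_SED_1 and ZT3_RUN_1, time in exercised mice was at -0.0765 for Dusp1 and -0.0509 for Errfi1. Depth limits Dusp5 most, with as few as 20 reads in a library.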
